A study of Mus musculus with 8 samples.

Results

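The proteasome genes of NIH3T3 cells were followed through arsenite stress and the recovery from it. Every gene whose symbol in the gene tables begins with Psma, Psmb, Psmc, Psmd, Psme, Psmf or Psmg and a number was taken, which gave 46 of the 10690 genes listed in at least 1 table, and all 46 were listed in all 3 tables. The genes Psma8, Psmb8, Psmb9, Psmb11 and Psme3ip1, which the same pattern would take, are in none of the tables. The proteasome is the protease that degrades proteins tagged with ubiquitin. Its 20S core is a barrel of stacked rings of α and β subunits, with the proteolytic sites inside the β rings, and its 19S cap carries a ring of ATPases that unfold the substrate together with non-ATPase subunits that bind and deubiquitinate it. Separate chaperones assemble core and cap, and further complexes can open the core in place of the cap. Arsenite damages proteins through their thiol groups, so that cells under arsenite have more misfolded protein to degrade, and subunit genes are known to be induced together in mammalian cells through the transcription factor encoded by Nfe2l1. By role, the 46 genes comprised 7 genes of the 20S α ring, 7 of the constitutive 20S β ring, Psmb10 as the only inducible β subunit, 6 of the 19S ATPases, 11 of the 19S non-ATPases, 3 of the 19S assembly chaperones, 4 of the 20S assembly chaperones and 6 activators or regulators of the 20S core. The last gene, Psmc3ip, fits the pattern by its symbol but encodes a partner of meiotic recombinases and no proteasome subunit, and it was kept as the rule asks.

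NIH3T3, a mouse fibroblast line in wide use, was proliferating here. Cells were left untreated (NT), kept in 250 µM sodium arsenite for 1 h (AS), or given the same treatment and then regular medium, in which they recovered over 4 h (RC4) or over 8 h (RC8), and total RNA was taken. Each condition was represented by 1 QuantSeq FWD library, in which reads lie near the 3′ end of an mRNA, so there are no replicates and no test between conditions, and the NT library is shared by every comparison with NT. The AS, RC4 and RC8 tables each list that NT library again. Reads on listed genes came to 22.4 M to 23.0 M per library. The 46 genes took 0.898% of the NT reads, with a median of 2686 reads per gene against 736.5 over all genes of the AS table, and the lowest number in any library was 236 reads, for Psmg1 in RC8. All 8 fibroblast markers checked were listed. By RC4, 2 of these 8 were at least 1.5-fold below NT, where 17.4% of all genes were, and by RC8 5 were, where 12.1% of all genes were. Of 8 markers of other cell types 1 was listed, Tubb3, with 2.79 (NT), 2.32 (AS), 11 (RC4) and 15.8 (RC8) RPM (reads scaled to a total of 1 M). The part of these shifts in the results below was not tested, and in bulk RNA fewer cells of a type and less RNA per cell cannot be told apart. The arsenite-inducible gene Hmox1 had 27.6 (NT), 57.8 (AS), 888 (RC4) and 101 (RC8) RPM.

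A level ratio below is the log2 ratio of a gene's reads between libraries after subtraction of the ratio of the median gene, with its counting error in the form ± SE. The median gene itself moved on the log2 RPM scale by -0.04 with arsenite, by -0.30 after the shorter recovery and by 0.01 after the longer one, so the centring raises every RC4 ratio by 0.30. Counting errors and intervals cover the counting of reads only, and reads copied by PCR, with no molecular identifier, cannot be counted as separate molecules. A gene is called higher or lower where its ratio reached 1.5-fold, which is a rule of size and no test. Where 4 RPM values stand without names, they are in the order NT, AS, RC4 and RC8.

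Polyadenylation sites (PASs) are where the mRNA is cut and its poly(A) tail added, usually shortly downstream of an AATAAA or ATTAAA hexamer. Sequences at PASs of 5 genes in which a share changed by at least 10 points are shown first, chosen to set intronic beside terminal and proximal beside distal PASs, each as the 30 bases that end at the listed PAS, read 5′ to 3′ on the gene's strand of the mm9 genome, with a hexamer in capitals where these bases hold one.
Psmd13, PAS in an intron, chr7:148078077-148078106 (+): tattcaactatagtagtgttttaaaaaaaa
Psmd13, PAS of the 3′-most exon, chr7:148084512-148084541 (+): tgctgctctAATAAAtgccttggcattgtt
Psmd9, PAS in an intron, chr5:123691404-123691433 (+): AATAAAaggaccacactggttctggctggc
Psmd9, first PAS of the 3′-most exon, chr5:123698480-123698509 (+): gctgcctgatgtaatctctctgggttgagg
Psmd9, last PAS, chr5:123698942-123698971 (+): ctttttaAATAAAtaacctactaagtgcca
Psma4, proximal PAS, chr9:54805588-54805617 (+): gataaatagacagaatcacggattttataa
Psma4, distal PAS, chr9:54805820-54805849 (+): taaaacttggaaagattggttatggtgaaa
Psmc6, first PAS, chr14:45968417-45968446 (+): ttaatgtaaaAATAAAgttaaggaaaataa
Psmf1, proximal PAS, chr2:151543972-151544001 (-): cagtcttccacgctcctttttgttaatgca
Psmf1, distal PAS, chr2:151542479-151542508 (-): tgcagtaAATAAAtagcactttataacctg
Over all PASs that the tables list for the 46 genes in the 3′-most exon, 43 of 82 had AATAAA or ATTAAA in the 40 bases upstream (52.4%), against 53.0% of 18269 such PASs of all genes. Of the PASs that the tables place in an internal exon, 0 of 10 had either hexamer, against 11.3% of 415 in all genes. For Psma4, the hexamer of the distal PAS starts 31 bases upstream and so lies outside the bases shown, and the proximal PAS had neither hexamer.

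In AS, the proteasome genes stood close to NT. None of the 46 genes was at least 1.5-fold higher, where 2.07% of all 10452 genes were, and 1 was at least 1.5-fold lower, where 10.2% of all genes were. Among the 4271 genes with at least 1000 NT reads, 0.70% were higher in AS and 8.83% lower. The median ratio of the 46 genes was 0.10, and 37 of them lay above the median gene, where 50% of all genes do by construction. Psmb4, a β subunit without proteolytic activity, had the highest ratio, at 0.28 ± 0.01, and the 7 constitutive β genes had ratios from 0.04 to 0.28. Psme4 was the gene that stood apart. It encodes PA200, an activator that caps the 20S core without using ubiquitin or ATP. Its level was 65.7 (NT), 26.6 (AS), 68.1 (RC4) and 65.1 (RC8) RPM. AS was thus the only library in which it was low, 2.40-fold below NT (-1.27 ± 0.07), and 1.21% of all genes had a lower ratio there. It lists 2 PASs in the AS table, at 55.4% and 44.6% of its NT reads and at 58.1% and 41.9% of its AS reads, so both were lower by a similar factor.

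**Figure D1:**
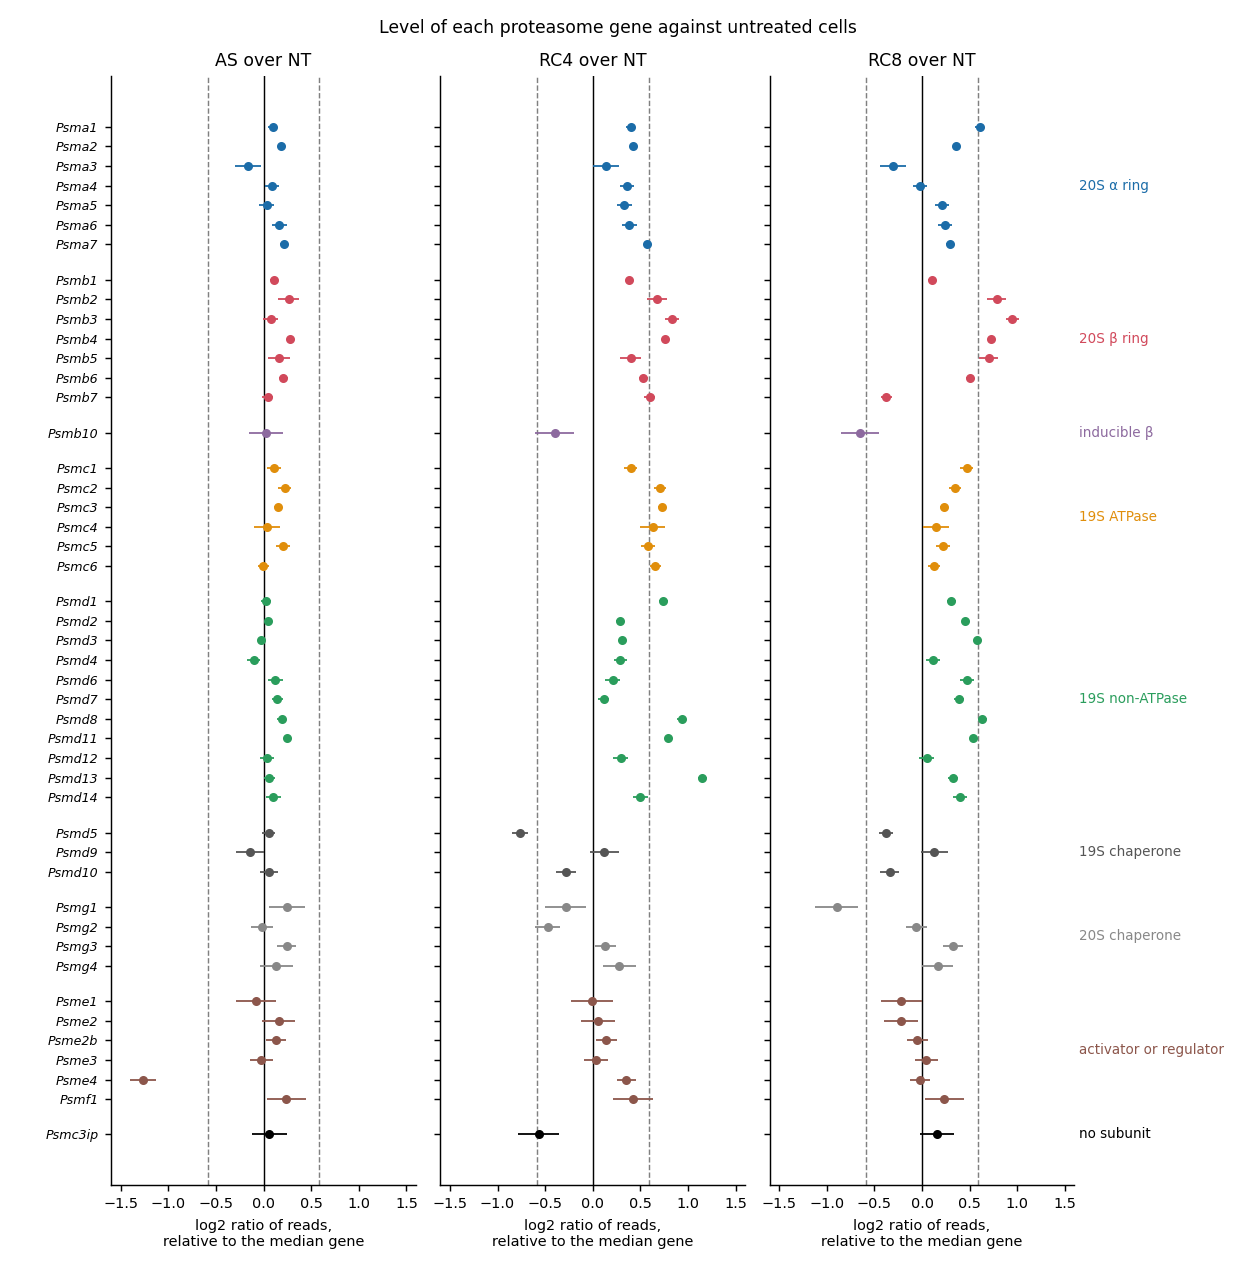
Log2 ratio of reads to NT, relative to the median gene (x axis), for each of the 46 genes (rows, grouped by role) in AS, RC4 and RC8. Points are single libraries, bars are 95% counting intervals and dashed lines mark 1.5-fold. In RC4 all 31 constitutive 20S and 19S subunits lie right of 0, while Psmd5, Psmc3ip, Psmg2, Psmb10, Psmg1 and Psmd10 lie left of it, as does Psme1 at -0.01.

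In RC4, the constitutive 20S and 19S subunits all lay above the median gene, as did 3 of the 7 assembly chaperones. Of the 46 genes 12 were at least 1.5-fold higher (26.1%), where 15% of all 10081 genes were, and 1 was at least 1.5-fold lower (2.17%), where 17.4% of all genes were. All 12 were constitutive subunits, 4 of the 7 β genes, 4 of the 6 ATPase genes and 4 of the 11 non-ATPase genes. All 31 constitutive subunits lay above the median gene, with a median ratio of 0.50 and a range from 0.11 (Psmd7) to 1.15 (Psmd13). The median over all 46 genes was 0.37, and the quartiles over all genes were -0.41 and 0.37. This count depends on the centring. Without it, in plain RPM, 2 of the 46 genes reached 1.5-fold upward and 5 downward, although 25 of the 31 constitutive subunits still had more RPM in RC4 than in NT, where 29.2% of all genes did. The share of all genes past 1.5-fold in plain RPM is not given here. The threshold ran through a dense range: Psmb7 was just inside it at 1.51-fold and Psmc5 just outside at 1.49-fold. Among the 4269 genes with at least 1000 NT reads, 13.6% were at least 1.5-fold higher in RC4.

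In RC8, 4 of the 6 proteasome genes at least 1.5-fold higher than NT were genes of the β ring. Of the 46 genes 6 were at least 1.5-fold higher (13.0%), where 11.1% of all 10441 genes were, and 2 were lower (4.35%), where 12.1% of all genes were. Among the 4271 genes with at least 1000 NT reads, 6.25% were higher in RC8 and 13.4% lower. In plain RPM the RC8 counts were the same, 6 higher and 2 lower, against 2 and 5 in RC4. The 6 were Psmb2, Psmb3, Psmb4, Psmb5, Psma1 and Psmd8, and the 2 were Psmg1 and Psmb10. With reads of the 3′-most exon only, the RC8 ratio of Psmb4 was 0.53 ± 0.02, below 1.5-fold, while Psmb2, Psmb3 and Psmb5 stayed above it. The constitutive subunits had a median ratio of 0.34, with 28 of 31 above the median gene, and Psmb7, Psma3 and Psma4 below it. Between RC4 and RC8, 2 of the 46 genes were at least 1.5-fold lower in RC8, Psmb7 and Psmd13 (14.2% of all genes), and 1 was higher, Psmc3ip (18.5%). Between AS and RC4, 6 were higher in RC4, namely Psme4, Psmd13, Psmb3, Psmd8, Psmd1 and Psmc6 (18% of all genes), and 2 were lower, Psmd5 and Psmc3ip (17.0%). These splits turned without the centring, to 4 higher and 1 lower from RC4 to RC8 and to 2 higher and 6 lower from AS to RC4. The shares of all genes past 1.5-fold without centring are not given here. Relative to the median gene, 26 of the 46 genes had their highest level in RC4, 13 in RC8, 5 in AS and 2 in NT. In plain RPM the order turned, with 27 highest in RC8, 10 in RC4, 5 in AS and 4 in NT. Of the 46 genes, 34 had more RPM in RC8 than in NT (50.6% of all genes), 32 had more in AS than in NT (43.7%), 27 had more in RC4 than in AS (34.9%) and 34 had more in RC8 than in RC4 (67.7%). The summed level of the 46 genes was 8978 (NT), 9519 (AS), 10481 (RC4) and 11776 (RC8) RPM.

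**Figure D2:**
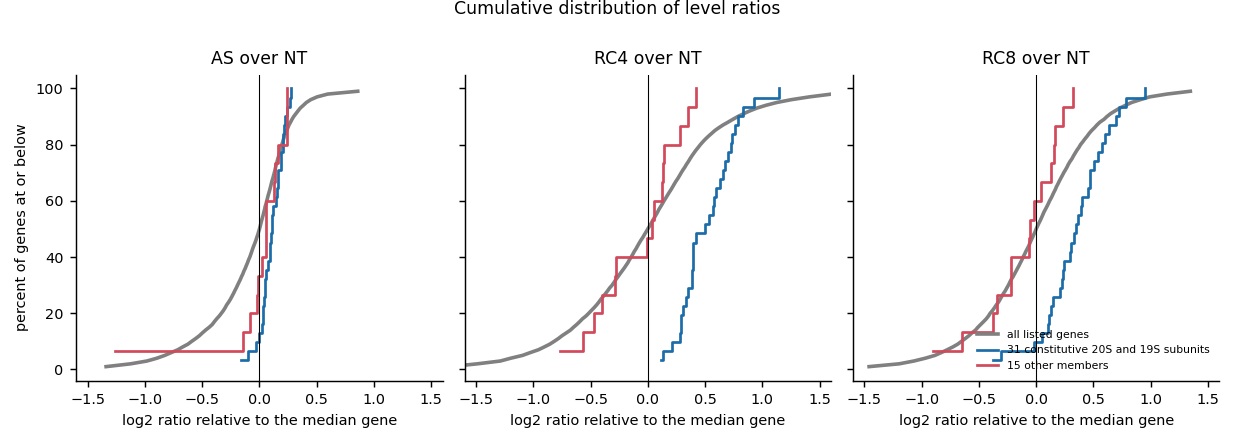
Cumulative percent of genes (y axis) at or below a log2 ratio to NT relative to the median gene (x axis), for all listed genes from the 1st to the 99th percentile (grey), the 31 constitutive 20S and 19S subunits (blue) and the 15 other members (red). The blue curve lies to the right of the grey one in AS, RC4 and RC8 over most of its length. The red curve crosses the grey one, lying to its right over part of the lower range in AS and RC4 and to its left at the upper end.

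The 7 listed genes of the α ring, the outer ring that gates the core, moved less than the β ring. Psma2, the most abundant of them by reads, had 642 (NT), 710 (AS), 697 (RC4) and 828 (RC8) RPM. Its ratio was 0.42 ± 0.02 in RC4 and 0.36 ± 0.02 in RC8. Psma3, the least abundant, had 39.9 (NT), 34.7 (AS), 35.6 (RC4) and 32.4 (RC8) RPM, and it was below NT in RPM in every treated library. Psma1 had 272, 283, 291 and 415 RPM in the same order of libraries, with most of its gain between RC4 and RC8. Its ratio of 0.60 ± 0.02 in RC8 made it the only α gene at 1.5-fold or more in any comparison with NT. The ratios of the α genes ran from 0.14 to 0.57 in RC4 and from -0.30 to 0.60 in RC8, and Psma5, Psma6 and Psma7 lay within them.

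The β ring, which holds the proteolytic sites, had the highest median of all role groups in RC8. The median ratio of its 7 constitutive genes was 0.16 (AS), 0.60 (RC4) and 0.70 (RC8). Psmb4 had 846 (NT), 996 (AS), 1163 (RC4) and 1406 (RC8) RPM, and so increased from each time point to the next. Psmb3, another subunit without proteolytic activity, had 112, 115, 162 and 217 RPM. Psmb3 was 1.78-fold above NT in RC4 (0.83 ± 0.04) and 1.93-fold above it in RC8 (0.95 ± 0.04), the highest ratio of any member in RC8. Psmb2 had 54.9, 64.1, 71.2 and 94.8 RPM, with ratios of 0.67 ± 0.05 in RC4 and 0.78 ± 0.05 in RC8. All 3 genes were highest in RC8 in RPM. Psmb1 moved least of the ring, with ratios of 0.38 ± 0.02 in RC4 and 0.10 ± 0.02 in RC8.

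The genes of the proteolytic sites, Psmb5, Psmb6 and Psmb7, did not move alike. Psmb5, which carries the chymotrypsin-like site, had 54.6 (NT), 59.4 (AS), 58.4 (RC4) and 89.0 (RC8) RPM. Its ratio was 0.40 ± 0.06 in RC4 and 0.70 ± 0.05 in RC8. Psmb6, with the caspase-like site, had 324, 363, 380 and 461 RPM and ratios of 0.53 ± 0.02 and 0.51 ± 0.02. Psmb7, with the trypsin-like site, had 206 (NT), 207 (AS), 253 (RC4) and 160 (RC8) RPM. It was 1.51-fold above NT in RC4 (0.60 ± 0.03) and 1.3-fold below it in RC8 (-0.37 ± 0.03), also in plain RPM, and so was the only constitutive β gene that ended below NT. Psmb10, the inducible subunit that replaces the Psmb7 product in immunoproteasomes, had 22.0, 21.7, 13.5 and 14.0 RPM. It stood 1.57-fold below NT in RC8 (-0.65 ± 0.10).

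The 6 ATPase genes of the 19S base, which unfold the substrate, had their highest ratios in RC4 with the exception of Psmc1. Their median was 0.13 (AS), 0.64 (RC4) and 0.23 (RC8), and 5 of the 6 were lower in RC8 than in RC4 relative to the median gene. Psmc3, the most abundant by reads, had 376 (NT), 406 (AS), 505 (RC4) and 444 (RC8) RPM. Psmc4, the least abundant, had 37.1, 37.0, 46.6 and 41.2 RPM. The ratios in RC4 were 0.73 ± 0.02 for Psmc3, 0.70 ± 0.03 for Psmc2, 0.66 ± 0.03 for Psmc6 and 0.63 ± 0.07 for Psmc4, and Psmc5 had 0.58 ± 0.04. Psmc1 was highest in RC8, with 127, 134, 136 and 177 RPM and ratios of 0.40 ± 0.04 in RC4 and 0.47 ± 0.04 in RC8.

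The 11 non-ATPase genes, which hold the ubiquitin receptors and the lid, had RC4 ratios from 0.11 to 1.15, and from 0.14 to 0.96 with reads of the 3′-most exon only. Psmd11, which encodes a scaffold subunit of the 19S lid, had 722 (NT), 831 (AS), 1012 (RC4) and 1053 (RC8) RPM, with a ratio of 0.79 ± 0.01 in RC4. Psmd8, a further lid subunit, had 292, 324, 453 and 455 RPM and ratios of 0.93 ± 0.02 in RC4 and 0.63 ± 0.02 in RC8. Psmd14, the deubiquitinase of the lid and the least abundant of the group in NT, had 101, 106, 116 and 134 RPM. Psmd2 and Psmd3 had nearly equal courses: Psmd2 had 620, 624, 612 and 849 RPM, and Psmd3 had 621, 592, 626 and 928 RPM. Both stayed near their NT level in RPM until RC4 and were high in RC8 only. Psmd7 had 200, 215, 176 and 263 RPM and was lowest in RC4 in RPM, but relative to the median gene it was lowest in NT. Psmd4, a ubiquitin receptor, had 144, 130, 143 and 157 RPM. Psmd1, a scaffold of the 19S base, had 263, 260, 356 and 327 RPM and an RC4 ratio of 0.74 ± 0.02, while Psmd6 and Psmd12 stayed within 1.5-fold of NT throughout.

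Psmd13, a lid subunit, had the highest RC4 ratio of all 46 genes, and most of it came from 1 intronic PAS. The gene had 240 (NT), 244 (AS), 433 (RC4) and 303 (RC8) RPM, which in RC4 was 2.22-fold above NT (1.15 ± 0.02). Of its reads, 34.8% in NT (95% Wilson interval 33.5% to 36.1%), 39.1% in AS, 62.3% in RC4 (61.3% to 63.2%) and 38.7% in RC8 were assigned to the intronic PAS, whose sequence is given first in the list above. In RPM, the intronic PAS had 83.8 in NT and 270 in RC4, while the PAS of the 3′-most exon had 157 in NT and 163 in RC4. With only reads at PASs of the 3′-most exon, the RC4 ratio was 0.38 ± 0.03, below 1.5-fold. Counted in this way, Psmd13 was also within 1.5-fold from AS to RC4, at 0.37 in place of 1.05, and from RC4 to RC8, at -0.10 in place of -0.78. The intronic PAS lies 1587 nt into an intron of 3860 nt in GENCODE M1, has neither hexamer in the 40 bases upstream and the bases shown end in a run of A. No other member's RC4 ratio differed by more than 0.21 between the 2 ways of counting. With reads of the 3′-most exon, 13 of the 46 genes were at 1.5-fold or more, Psmd13 no longer among them and Psma7 (0.62) and Psmc5 (0.61) added. Psmc5 had the same 3291 RC4 and 2675 NT reads in both ways of counting. It passed only because the median gene was here taken over the 9730 genes with such reads. The share of all genes past 1.5-fold in this count is not given here.

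**Figure D3:**
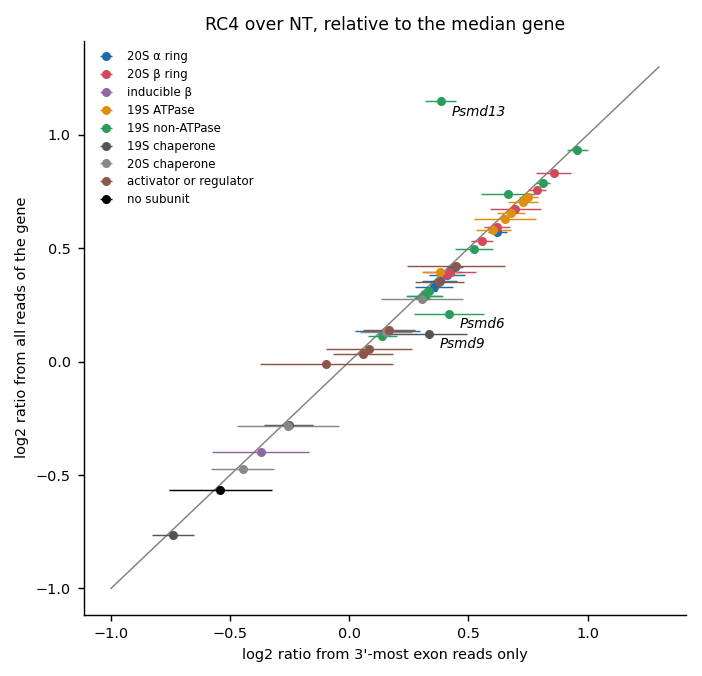
Log2 ratio of RC4 over NT from all reads of a gene (y axis) against that from reads at PASs of the 3′-most exon (x axis), both relative to the median gene. Each point is 1 of the 46 genes, coloured by role, bars are 95% counting intervals of the x value and the line marks equal values. Psmd13 lies far above the line, at 1.15 against 0.38, and Psmd6 and Psmd9 lie 0.21 below it.

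The assembly chaperones, which are not part of the finished particle, were not shifted upward as a group in RC4. Of 7 chaperone genes 3 lay above the median gene in RC4, where 50% of all genes do, with a median ratio of -0.28. None of the 7 had more RPM in RC4 than in NT, where 29.2% of all genes did. The first count lies close to its share and the second below it, each on 7 genes only. Psmd5, which chaperones the ATPase ring, had 146 (NT), 148 (AS), 70.0 (RC4) and 113 (RC8) RPM. It was 1.70-fold below NT in RC4 (-0.76 ± 0.04), the lowest ratio of any member there, and had regained part of the difference by RC8 (-0.38 ± 0.04). Psmd10, also known as gankyrin, had 83.7, 84.6, 56.0 and 66.4 RPM. Psmd9 had 33.6, 29.6, 29.7 and 36.8 RPM.

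Among the chaperones of the 20S core, Psmg1 had 19.1 (NT), 22.0 (AS), 12.7 (RC4) and 10.3 (RC8) RPM. Its RC8 level was 1.86-fold below NT (-0.90 ± 0.12), the lowest ratio of any member in RC8. Its partner in a heterodimer, Psmg2, had 54.9, 52.8, 32.1 and 52.9 RPM and was low in RC4 alone, at a ratio of -0.47 ± 0.07. Psmg3, of the other chaperone pair, had 62.2, 71.5, 55.3 and 78.1 RPM, and its partner Psmg4 had 24.0, 25.6, 23.6 and 26.9 RPM. In RC4 the 95% counting intervals of Psmg1 and Psmg2 both lay below 0, and in RC8 that of Psmg2 (-0.17 to 0.06) included it.

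The activators and regulators other than Psme4 changed little. Psme1 and Psme2, the subunits of the 11S activator PA28αβ, had 16.6, 15.2, 13.4 and 14.3 RPM and 23.4, 25.4, 19.7 and 20.2 RPM. Psme2b is a retrocopy nearly identical to Psme2, so reads may have been divided between them in either way, and it is listed with 60.6, 64.4, 54.2 and 58.7 RPM. Psmf1, an inhibitor of the core and the least abundant member in NT, had 15.8, 18.1, 17.2 and 18.6 RPM, and Psme3 had 49.5, 47.3, 41.1 and 51.3 RPM. None of these reached 1.5-fold in a comparison with NT. Psmc3ip, which is no subunit, had 21.3, 21.6, 11.7 and 23.9 RPM and was low in RC4 alone.

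**Figure D4:**
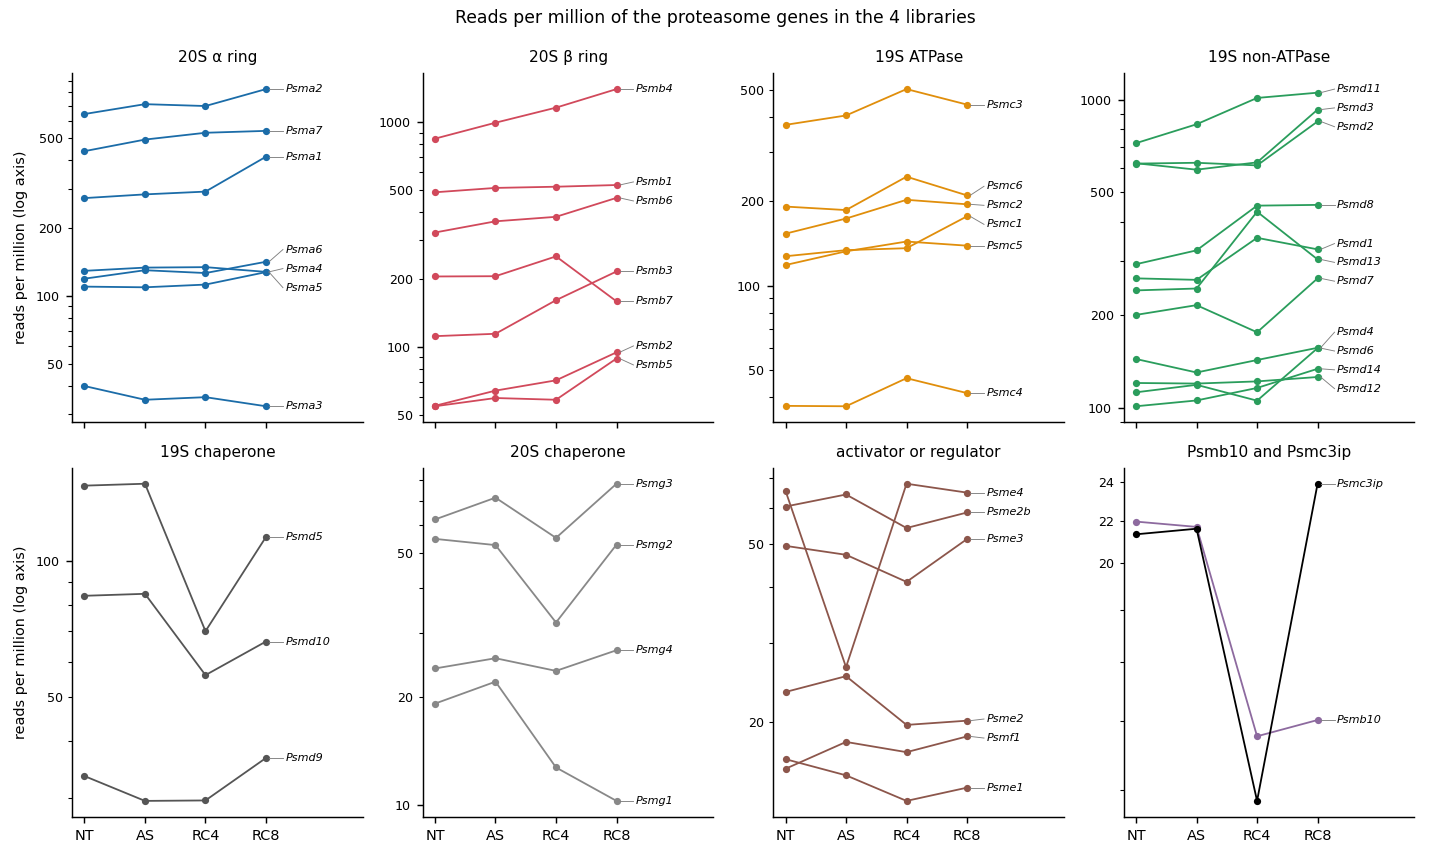
RPM on a log axis (y axis) in the libraries NT, AS, RC4 and RC8 (x axis) for each of the 46 genes, in panels by role. Each point is 1 library without centring on the median gene. Psmb4 climbs from 846 to 1406, Psmb7 falls between RC4 and RC8, and Psme4 dips to 26.6 in AS.

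PAS usage was listed with more than 1 PAS for 27 of the 46 genes in the AS table, 26 in the RC4 table and 27 in the RC8 table, with at most 5 PASs in a gene. The share of genes with a single PAS was 41.3% to 43.5% for the 46 genes and 47.0% to 49.4% for all genes. A PAS share changed by at least 10 percentage points in 1 of 27 members in AS, where 15.3% of all genes with more than 1 PAS did so. The same held for 6 of 26 members in RC4, where 29.1% of all genes did, and for 4 of 27 in RC8, where 27.0% did. The median of the largest change in a gene was 2.70, 4.35 and 3.90 points for the members in AS, RC4 and RC8, and 4.20, 6.2 and 6 points for all genes. All of these counts for the members were at or below the background of all genes.

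Psmd9, a chaperone of the 19S base, had a lower share at its intronic PAS in every treated library. Its intronic share was 19.3% in NT (Wilson interval 16.6% to 22.2%), 8.24% in AS (6.42% to 10.6%), 8.12% in RC4 and 6.56% in RC8, on 664 to 846 reads of the gene per library. This PAS lies 1674 nt into an intron of 2081 nt and is preceded by AATAAA, as the sequence above shows. The first PAS of its 3′-most exon held 36.1% in NT, 45.8% in AS and 56.9% in RC4, a change of 20.8 ± 2.6 points in RC4. In the RC8 table, that PAS is listed further downstream, at position 123698536, so its RC8 share of 41.5% is not of the same site.

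Psma4 and Psmd7 switched in opposite directions at the recovery times. The distal PAS of Psma4, 232 nt downstream of the proximal PAS, held 14.2% of the reads in NT, 19.5% in AS, 6.06% in RC4 (5.26% to 6.95%) and 34.3% in RC8 (32.6% to 36.0%), where the RC8 table lists 14.5% for NT. While the level of the whole gene was 129, 134, 134 and 128 RPM, its distal PAS had 18.4 RPM in NT, 8.14 in RC4 and 43.9 in RC8. In Psmd7, a lid subunit, the most proximal PAS held 25.1% in NT, 27.6% in AS, 36.1% in RC4 (34.6% to 37.6%) and 14.7% in RC8 (13.8% to 15.6%). GENCODE M1 places that PAS in a coding exon, with 14 A among the 20 bases that follow. The median was 4 A over all listed PASs and 5 A over those of the proteasome genes.

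Further genes passed the threshold of 10 points at a single recovery time. In Psma3, the first of 3 PASs held 68.6% in NT and 84.3% in RC4, a change of 15.7 ± 2.0 points. In Psmf1, the proximal PAS, 1493 nt upstream of the next, held 48.1% in NT, 47.6% in AS and 64.9% in RC4, a change of 16.8 ± 3.6 points on 356 and 393 reads. In the RC8 table Psmf1 has 3 PASs in place of 2, and the proximal share is 41.8% in NT and 37.6% in RC8. In Psmd12, the last PAS held 43.7% in NT and 33.6% in RC4, a change of -10.1 ± 1.3 points that just passed the threshold. For AS and RC8 its last PAS is listed further upstream, at position 107359403, and the largest change of a share was 5.8 and 7.8 points. In Psmc6, with 5 PASs, the first PAS held 6.56% (NT), 10.3% (AS), 16.3% (RC4) and 17.9% (RC8), and only the RC8 change of 11.3 ± 0.67 points passed it, with RC4 just below at 9.74.

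**Figure D5:**
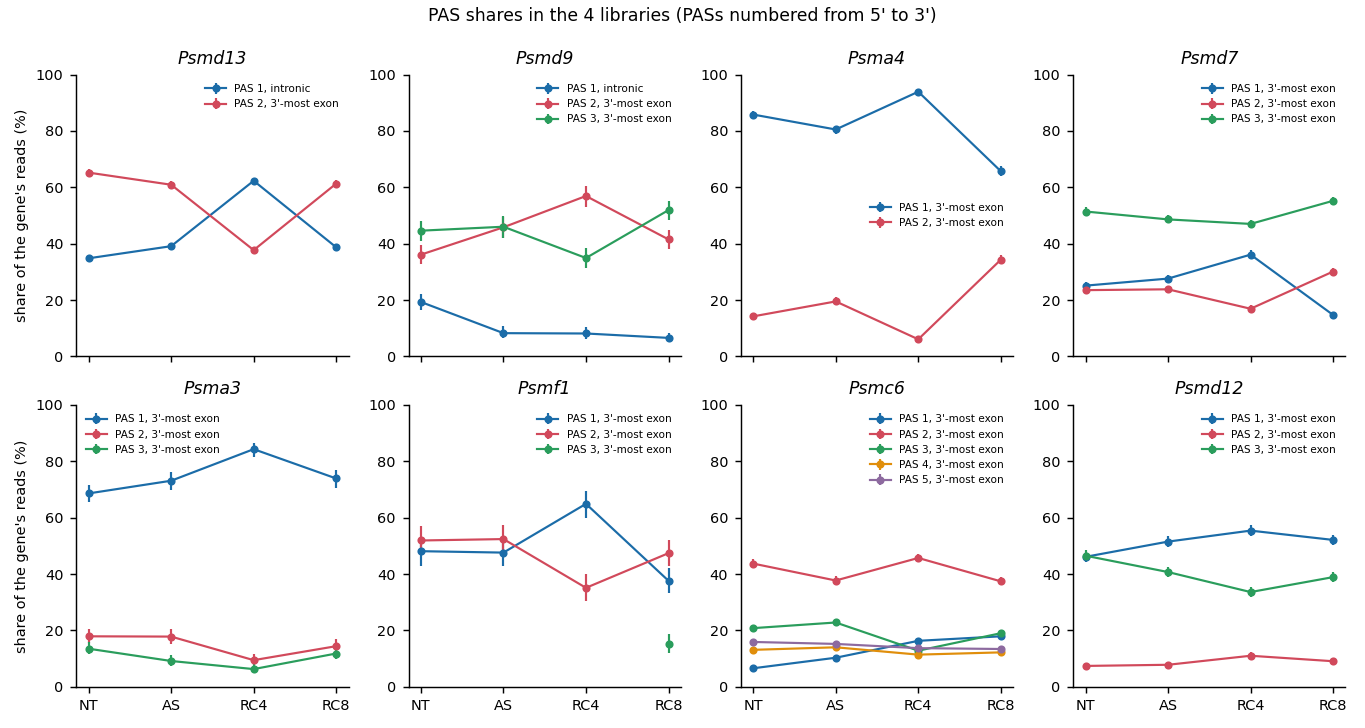
Share of a gene's reads at each PAS in percent (y axis) in NT, AS, RC4 and RC8 (x axis) for the 8 members with a change of at least 10 points, PASs numbered from 5′ to 3′. NT values are those of the AS table, bars are 95% Wilson intervals of counting error, and PASs of different tables within 50 nt share a colour. The intronic PAS of Psmd13 reaches 62.3% in RC4 alone, and the distal PAS of Psma4 drops to 6.06% in RC4 and reaches 34.3% in RC8.

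For genes with at least 2 PASs in the 3′-most exon, the relative expression difference of 3′UTR PASs (REDu) is the log2 ratio of distal to proximal reads in the treated library minus that in NT, for the pair of PASs whose shares changed most apart. REDu below 0 means a shift towards the proximal PAS. It was below 0 in 15 of 22 members in AS (67.8% of all genes), in 15 of 20 in RC4 (69.1% of all genes) and in 10 of 22 in RC8 (55.8% of all genes). The median REDu of members and of all genes was -0.12 and -0.23 in AS and -0.66 and -0.39 in RC4, whereas RC8 had 0.04 and -0.15. Psmc6 had the lowest value in each comparison, at -0.86 ± 0.12, -2.01 ± 0.12 and -1.67 ± 0.11. Its distal PAS was at 45968546 in AS and RC8 and at 45968665 in RC4, so the values are not of the same pair. The highest values were 0.55 ± 0.10 in AS for Psma4, 0.43 ± 0.08 in RC4 for Psma6 and 1.62 ± 0.09 in RC8 for Psma4.

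In 3 subunits at least 50.3% of the NT reads were at PASs that the tables place in an internal exon. In Psmd1 4 such PASs held 8.11%, 27.6%, 35.7% and 10.2% of the NT reads, and the PAS of the 3′-most exon 18.4%. In Psmd6 an internal-exon PAS held 71.3%, and in Psmb4 50.3% of the NT reads. That PAS of Psmb4 lies 130 nt, and that of Psmd6 209 nt, upstream of the nearest listed 3′-most exon PAS along the spliced transcript of GENCODE M1. The bases that follow 1 of these PASs of Psmd1, and those that follow the main PAS of Psmd11, with 92.3% of its NT reads, are shown as examples of sequence rich in A. Each is 20 bases of mm9, with runs of at least 4 A in capitals.
Psmd1, after PAS 2, counted from 5′, chr1:88027281-88027300 (+): ccAAAAgAAAAAgAAAAgga
Psmd11, after its first PAS, chr11:80285421-80285440 (+): gAAAAAgAAAAAAAAAgatt
These stretches hold 14 and 15 A, where the median over all listed PASs was 4. The 96 listed PASs of the proteasome genes had a median of 5, so the stretches shown are examples and not typical of these genes. What part such stretches had in the listed shares was not tested. The largest change of a share was 5.6 points in Psmd1 and 3.56 points in Psmd11.

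The same NT library gave nearly the same gene counts in the 3 tables, while NT shares of a few PASs differed widely. For 38 of the 46 genes the NT read count was equal in all tables, and the largest difference was 1.80%. Of 69 PASs listed for members in more than 1 table, 61 had NT shares within 0.5 point of each other and 5 differed by more than 5 points. The latter belong to genes for which the tables list different sets of PASs, such as Psmd4 with 3 PASs in the AS and RC8 tables and 2 in the RC4 table. There the NT share of the PAS at 94836626 ran from 33.4% to 94.6%, the largest gap, at 61.2 points. In Psme1 the NT share of the PAS at 56199940 ran from 25.7% to 38.1%. In Psmb4 the NT share of the internal-exon PAS was 50.3% in the AS table and 44.7% in the RC8 table, beside a listed change of 6.8 points in RC8.

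Genes around the proteasome were taken from lists by function. Of 10 listed proteasome genes outside the symbol pattern, 0 were past 1.5-fold in AS, 3 were higher and 0 lower in RC4, and 1 was higher and 1 lower in RC8. Of all genes, AS had 2.07% higher and 10.2% lower, RC4 had 15% and 17.4%, and RC8 had 11.1% and 12.1%, and the RC8 counts of this list lie near these shares. The ubiquitin receptor gene Adrm1 was higher at both recovery times, with 20.5 (NT), 19.4 (AS), 29.8 (RC4) and 39.2 (RC8) RPM and ratios of 0.84 ± 0.09 and 0.93 ± 0.08. Txnl1, a thioredoxin-like protein of the 19S cap, and Zfand5, a proteasome activator, had RC4 ratios of 0.96 and 0.93. Uchl5, a deubiquitinase that Adrm1 recruits, had a ratio of -0.69 in RC8. Pomp, the chaperone that matures the 20S core, had 632, 637, 668 and 531 RPM and stayed within 1.5-fold.

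Among 10 listed genes of transcription factors that act on proteasome genes and of their processing, 0 were higher and 3 lower in AS, 4 were higher and 2 lower in RC4, and 0 were past 1.5-fold in RC8. The shares over all genes were 2.07% higher and 10.2% lower for AS, 15% and 17.4% for RC4, and 11.1% and 12.1% for RC8. Nfe2l1 itself had 166 (NT), 132 (AS), 105 (RC4) and 135 (RC8) RPM, with ratios of -0.29 ± 0.04, -0.36 ± 0.04 and -0.31 ± 0.04, so its mRNA was below NT in every treated library. Ddi2, the protease that activates its protein, had a ratio of -0.84 in AS, and Ngly1, which deglycosylates it, -0.65 in RC4. The small Maf genes Maff, Mafk and Mafg had RC4 ratios of 2.1, 0.97 and 0.77, and the repressor gene Bach1 one of 1.27. In AS, Mafk and Bach1 were lower, at -1.03 and -0.69. Hsf1, the heat shock factor, was lower in RC4, at -0.80.

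The polyubiquitin gene Ubb was above NT in RC4 and below it in RC8. Of 16 listed genes of ubiquitin supply and delivery, 2 were higher in AS and 0 lower, 5 were higher and 1 lower in RC4, and 2 were higher and 2 lower in RC8. Beside these stand 2.07% higher and 10.2% lower among all genes with AS, 15% and 17.4% with RC4 and 11.1% and 12.1% with RC8, so that the RC8 counts lie near the background. Ubb, which encodes ubiquitin as a chain of repeats, had 722 (NT), 920 (AS), 1391 (RC4) and 341 (RC8) RPM. Relative to the median gene it was 2.37-fold above NT in RC4 and 2.12-fold below it in RC8. Zfand2a, an arsenite-inducible protein that binds the 19S cap, had 32.3, 62.1, 283 and 90.8 RPM. Ubqln1, a shuttle that carries ubiquitinated proteins to the proteasome, had a ratio of 1.5 in RC4, while its relative Ubqln4 had -1.19. Nploc4, a cofactor of the segregase p97, was higher at both recovery times, at 0.83 and 0.93. Of the genes that supply peptides to MHC class I, 4 to 6 were listed per table. None was past 1.5-fold in AS, and Tap1 and Erap1 were higher in RC8 (1.43 and 1.15).

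Complexes of a similar build were set beside the proteasome, with no test of the difference, since each condition has 1 library. The 8 listed genes of the CCT chaperonin, which folds actin and tubulin, had median ratios of 0.13 (AS), 0.51 (RC4) and 0.11 (RC8). All 8 lay above the median gene in RC4, and 2 were at least 1.5-fold higher, where 15% of all genes were. The 9 genes of the COP9 signalosome, whose subunits are related to those of the 19S lid, had medians of 0.14, -0.21 and -0.19. In RC4, 3 of these 9 lay above the median gene and 0 were past 1.5-fold. The median of the 31 constitutive proteasome subunits, at 0.11, 0.50 and 0.34, was close to that of CCT in AS and RC4.

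Promoters were searched for the core of the antioxidant response element, TGACNNNGC, to which Nfe2l1 and Nfe2l2 bind, on either strand in the 250 bases before the RefSeq gene start (GRCm38.p6). Of the 46 genes, 39 matched a promoter entry, and Psmb1, Psmb2, Psmb7, Psmc3, Psmd3, Psmd7 and Psmg2 did not. The core was present in 5 of 39 (12.8%), against 11.5% of 27025 promoters. The CCAAT box, the letters CCAAT on either strand, was present in 13 of 39 (33.3%), against 37.5%. The 5 matches are shown with the core in capitals, on the gene's strand, since Psmb5 and Psmb6 of the proteolytic sites are among them.
Psmb5, chr14:54618024-54618052 (-): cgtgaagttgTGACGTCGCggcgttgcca
Psmb6, chr11:70525328-70525356 (+): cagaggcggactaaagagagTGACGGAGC
Psmc6, chr14:45329587-45329615 (+): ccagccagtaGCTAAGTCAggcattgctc
Psmd9, chr5:123228149-123228177 (+): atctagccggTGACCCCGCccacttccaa
Psmd12, chr11:107479278-107479306 (+): tctGCTGTGTCAcatttgcccccctcaga
In Psmb5, Psmb6 and Psmd9 the core starts 47, 9 and 31 bases before the gene start, and in Psmc6 and Psmd12 it starts 227 and 247 bases before it. A match of letters is no binding site by itself. The RC4 ratios of these 5 genes were 0.40, 0.53, 0.66, 0.12 and 0.29 in the order shown.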

How the data were processed

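Total RNA of NIH3T3 cells was sequenced with QuantSeq FWD, 1 library for each of NT, AS, RC4 and RC8, while the QuantSeq REV libraries of the series were not analysed here. The authors trimmed reads with bbmap, aligned them with STAR (version 2.5.2a, per the submitters' processing notes) to mm9 and assigned them to PASs of PolyA_DB with MAAPER, for genes with at least 50 reads and PASs with at least 5% of a gene's reads. The deposited gene tables hold read counts, with 2 count columns per library, which were added here because they differed by no more than counting noise (chi-square per degree of freedom 0.97 to 1.03). The deposited PAS tables give each PAS as a fraction of the reads of its gene, which is printed here in percent. The authors' own comparison columns (p-values and indices of PAS shift) were not used.

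RPM values were scaled to the sum over all listed genes, and log2 ratios were centred on the median gene of each table, with SE from Poisson counts. With 1 library per condition no test was made, and a fold of 1.5 or a share change of 10 points was read against all listed genes. Alternatives included TMM factors (edgeR 4.0.16), DESeq2 1.42.0 size factors (both in R 4.3.3), no centring and other thresholds. Other steps used Python 3.11.15 with pandas 2.3.3, numpy 2.4.6 and scipy 1.17.1, and the ratio and its error were tested on simulated counts. The members, gene lists and rules were chosen with earlier results of these data known. Genes were named where they had the highest or lowest NT level of their role, were among the 6 highest or 6 lowest ratios of a comparison with NT or the highest or lowest of another comparison, or changed a PAS share by at least 10 points. Psma5, Psma6, Psma7, Psmb1, Psmb6, Psmc1, Psmc2, Psmc5, Psmc6, Psmd2, Psmd6, Psmd7 and other members beyond this rule were named after their values were seen, to account for every member. Sequences came from mm9 at the listed PAS positions, with GENCODE M1 for gene models, and promoters from RefSeq (GRCm38.p6). Some genes of the other lists and 1 sequence are not reported here.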

Additional observations from a re-analysis of the deposited data

Results flagged for a closer look

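Some genes moved in opposite directions from NT at the recovery times, and these differences were not tested, since each time has 1 library and both comparisons share the NT library. Psmb7 had a log2 ratio to NT of 0.596 in RC4 and -0.373 in RC8. In Psma4, the share of the proximal PAS at 54805617 changed by 8.1 points in RC4 and by -19.8 points in RC8, and that of the distal PAS at 54805849 by -8.14 and 19.8 points. In Psmd7, the PAS at 110104803 changed by 11 points in RC4 and -10.4 points in RC8, and the PAS at 110104429 by -6.6 and 6.6 points. In Psmd9, the last PAS, at 123698971, changed by -9.7 points in RC4 and 8.2 points in RC8. The PAS before it is listed at 123698509 for RC4 and at 123698536 for RC8, so these shares were taken over different sets of PASs.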

How the results depend on the processing

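No paired analysis was possible because each condition has 1 library, and for the same reason no library could be left out in turn. Of the recomputed values 155 stayed close to those reported, 47 moved and 2 reversed. Apart from the percentiles and medians of all genes named below, no background stands beside the recomputed counts. They show how the member counts move and are not read against all genes. TMM factors, DESeq2 size factors, the first count column alone, the NT reads of another table and reads of the 3′-most exon alone moved none of the counts by more than 1.5 times, and the median that moved most was that of RC4 with the first count column, at 0.32 in place of 0.37. Without centring, the RC4 count was 2 higher and 5 lower, with a median of 0.065, in place of 12, 1 and 0.37. The comparison of RC4 with AS then gave 2 higher and 6 lower with a median of 0.023, and that of RC8 with RC4 gave 4 higher and 1 lower, with a median of 0.15 in place of -0.11. Centring on genes with at least 1000 reads, chosen after seeing the data, gave 2 lower in RC4, 1 lower in RC8, and 4 higher and 1 lower with a median of 0.13 from RC4 to RC8. A lower threshold, at a log2 ratio of 0.32, gave 26 higher and 4 lower in RC4, 18 and 5 in RC8, 16 and 6 for RC4 over AS, and 4 and 10 for RC8 over RC4. Over all genes, percentile 72 lay at 0.32 in RC4 and 0.34 for RC4 over AS. Percentile 76 lay at 0.33 in RC8, and percentile 70 at 0.33 for RC8 over RC4. On the lower side, percentile 29 lay at -0.33 in RC4 and -0.32 for RC4 over AS. Percentile 24 lay at -0.33 in RC8, and percentile 28 at -0.32 for RC8 over RC4. A fold of 2 gave 1 and 0 in RC4, 0 and 0 in RC8, 2 and 0 for RC4 over AS, and 0 and 0 for RC8 over RC4. The second count column alone gave 2 lower in RC4, 4 lower for RC4 over AS and 4 lower for RC8 over RC4. A minimum of 200 reads in both libraries gave 2 lower in RC4. With the 20S and 19S subunits only, 0 were lower in AS, 0 in RC4, 1 in RC8 and 0 for RC4 over AS, and 0 were higher for RC8 over RC4. Without Psmc3ip, Psme2 and Psme2b, also chosen after seeing the data, 1 was lower for RC4 over AS and 0 were higher for RC8 over RC4. The number of members with a changed PAS share at a threshold of 5 points was 5 (AS), 12 (RC4) and 8 (RC8), and at 20 points 0, 2 and 0. Over all genes with more than 1 PAS, the median largest change was 4.2, 6.2 and 6 points. In AS it was 0 with shares within the 3′-most exon, and 0 with PASs under 100 nt apart added together, the latter chosen after seeing the data. A change of the centring moves every ratio of a comparison by the same amount. The thresholds, the member lists and the settings that leave out PASs outside the 3′-most exon set the count by construction. Apart from these settings, the cause of the shifts was not tested. Depth limits genes such as Psmf1 and Psme1, whose ratios have counting errors of 0.10 to 0.11.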
